A study of Mus musculus with 9 samples.

Results

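The nuclear-encoded subunits of the respiratory chain and ATP synthase were followed in RNA-seq of colonic mucosa from 9 C57BL/6J mice at 15 wk of age. The 5 ApcMin/+ mice comprised 2 females and 3 males. The 4 ApcMin/+; p16cis/cis mice comprised 3 females and 1 male. Each mouse gave 1 library. Both genotypes carry the Min mutation of Apc, which initiates intestinal adenomas, and the second is also homozygous for p16cis, an allele engineered in the germline to draw DNA methylation to the p16 promoter, so all cells of these animals carry it. The comparison addressed which genes respond to p16 epimutation in mucosa that already carries the Apc mutation. The genes were chosen by name, as the rows that begin with Ndufa, Ndufb, Ndufc, Ndufs, Ndufv, Uqcr, Cox4, Cox5, Cox6, Cox7, Cox8 or Atp5 together with Sdha, Sdhb, Sdhc, Sdhd and Cyc1, without the Ndufaf assembly factors. This gave 86 of the 54146 genes listed. Of the 86, 36 belong to complex I, 4 to complex II, 9 to complex III, 19 to complex IV and 15 to complex V. Ndufa4 and its paralog Ndufa4l2 were counted in complex IV, where the Ndufa4 protein resides. The other 3 genes carry a subunit-like name but are not subunits: Cox7a2l takes part in joining complexes into supercomplexes, Atp5sl is an assembly factor of complex I, and Atp5s is a coupling factor of ATP synthase.

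Complexes I to IV sit in the inner mitochondrial membrane and pass electrons from NADH and succinate to oxygen, and complexes I, III and IV pump protons as they do so. Complex V, the ATP synthase, lets the protons return and makes ATP. Most of the subunits are encoded in the nucleus, a small set is encoded by mitochondrial DNA, and only some of the nuclear-encoded ones carry the redox centers or the catalytic sites, while the remainder are accessory subunits needed for assembly and stability. Colonocytes depend on this system to oxidize the butyrate made by the gut microbiota.

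The depth was 13523500 to 17885918 reads on genes per mouse, of which the 86 genes together held 234272 to 405125. Values are normalized counts, that is, reads of a gene scaled by the size factor of the library. Reads on genes of the mitochondrial genome made up 12.0% ± 2.87 (SD, n = 5) of an ApcMin/+ library and 24.2% ± 4.41 (SD, n = 4) of an ApcMin/+; p16cis/cis library. By an exact two-sided permutation test p was 0.0159, the lowest value that 5 mice against 4 can give here. The nuclear-encoded genes took 2.02% ± 0.31 (SD, n = 5) and 1.81% ± 0.083 (SD, n = 4) of all reads, and 2.30% ± 0.30 (SD, n = 5) and 2.39% ± 0.12 (SD, n = 4) of the reads left after those of the mitochondrial genome were set aside. Neither share differed between the genotypes beyond the spread between mice (exact permutation tests, two-sided, p = 0.222 and p = 0.603). As a check of the tissue, the 7 markers of absorptive colonocytes were all detected, and their summed normalized count ran from 127611 to 269899 in ApcMin/+ mice, above the range of 89268 to 116530 in ApcMin/+; p16cis/cis mice. Of these markers 1, the chloride exchanger Slc26a3, was called lower. Among the markers of other cells, Mki67 (log2 difference 0.92, adjusted p = 0.00656) of 6 crypt stem and cycling genes and Spink4 (1.41, adjusted p = 0.0139) of 7 goblet genes were called higher. Called lower were Chga and Chgb of 5 enteroendocrine genes, Jchain (-2.65, adjusted p = 0.0175) of 5 B and plasma cell genes, and 1 gene each of the fibroblast, adipocyte and red blood cell lists. Over all genes tested, 8.14% were called higher and 8.75% lower. The summed crypt stem and cycling markers ran from 5218 to 8237 in ApcMin/+ mice against 7873 to 10780, and those of B and plasma cells from 133 to 1584 against 143 to 287, with no marker of either list at 0 in all mice. ApcMin/+ replicate 4 alone had 269899 for absorptive colonocytes, 5218 for crypt stem and cycling cells and 133 for B and plasma cells. The other ApcMin/+ mice ran from 127611 to 146104, from 7061 to 8237 and from 539 to 1584. In bulk tissue, fewer cells of a type and less RNA per cell cannot be told apart, and the part of these markers and of the mitochondrial share in the results below was not tested.

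The members covered a wide range of levels. Per kb of transcript, the median member of complex V stood at 4712 normalized counts over the 9 mice and that of complex I at 2525. The most abundant members were Cox6a1 (27381 per kb) and Cox8a (24968 per kb), small subunits of cytochrome c oxidase, and in complex V Atp5b, the catalytic beta subunit of ATP synthase, led with 18917 per kb. Uqcr10, a small subunit of the cytochrome bc1 complex, was highest in complex III with 14037 per kb, Ndufa6 in complex I with 7521 per kb, and Sdhb, the iron-sulfur subunit of succinate dehydrogenase, in complex II with 5116 per kb. At the low end, Ndufab1, the mitochondrial acyl carrier protein, had 159 per kb in complex I, Atp5g2 had 79.0 per kb in complex V, Uqcrc2 had 3417 per kb in complex III and Sdhc had 1914 per kb in complex II. Levels thus varied less among the members of complexes II and III than in complex IV, which held genes at both ends of the range. The order per kb depends on the transcript length used, which was 3479 bases for Ndufab1 and 3171 bases for Sdhc. In mean normalized counts, Ndufb4 (163 in ApcMin/+ and 446 in ApcMin/+; p16cis/cis mice) was below Ndufab1 (487 and 636). Sdhc (5730 and 6494) was above Sdhd (5323 and 4468).

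**Figure D1:**
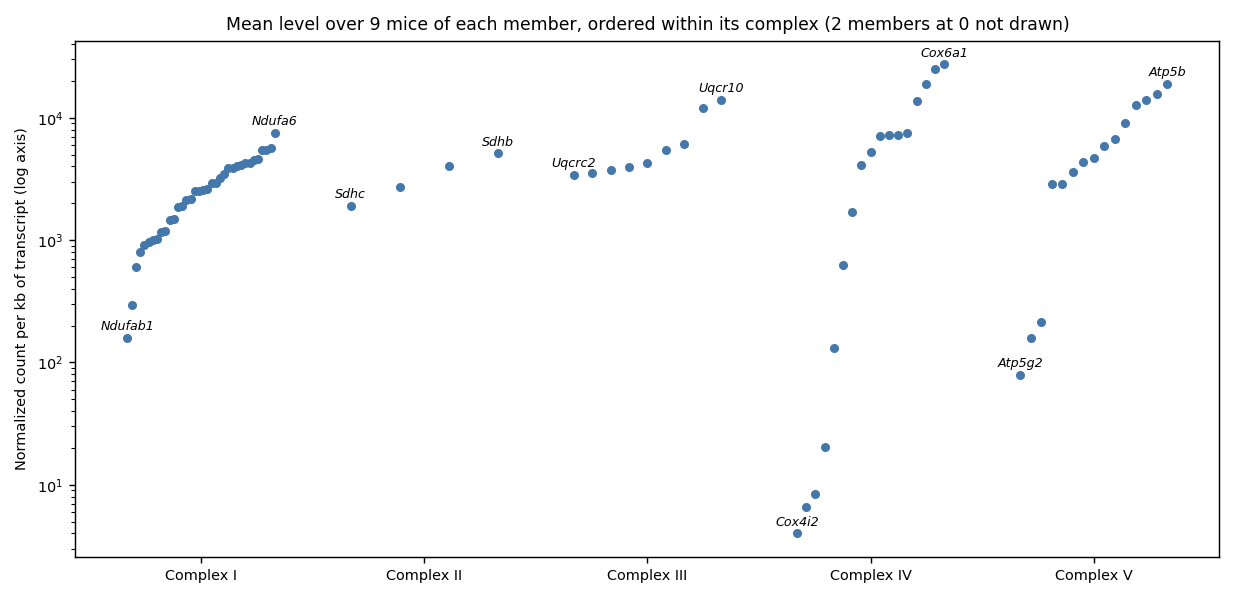
Mean normalized count per kb of transcript (log axis) of each member over the 9 mice, ordered within its complex, with the highest and the lowest member named. Complex II and complex III members lie between 1914 and 14037 per kb, while complex IV extends from Cox4i2 at 4.01 per kb to Cox6a1 at 27381 per kb.

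The genotypes were compared over the 14410 genes that reached a normalized count of 10 in 4 or more mice, with limma on log2(normalized count + 1), a scale that understates the change of low genes. Of the 86 members 80 entered the test. Cox4i2, Cox6a2, Cox8b and Ndufa4l2 were too low, and Cox7b2 and Cox8c were listed at 0 in all 9 mice. At a Benjamini-Hochberg adjusted p under 0.05, 13 members were higher in ApcMin/+; p16cis/cis mice and 5 were lower, while 62 were not called. Among all genes tested 8.14% were higher and 8.75% lower, against 16.2% and 6.25% of the members. The median log2 difference (ApcMin/+; p16cis/cis minus ApcMin/+) was 0.20 over the members and -0.0041 over all genes, with 60 members above 0 and 20 below, but the median of the members was -0.074 once each mouse was corrected for the GC content and length of transcripts. Leaving out ApcMin/+ replicate 4 raised the number of higher members to 30 (11.7% of all genes), leaving out ApcMin/+; p16cis/cis replicate 1 raised it to 21 (7.49%), and leaving out any other mouse lowered it to between 5 and 7 (3.71% to 7.02%).

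**Figure D2:**
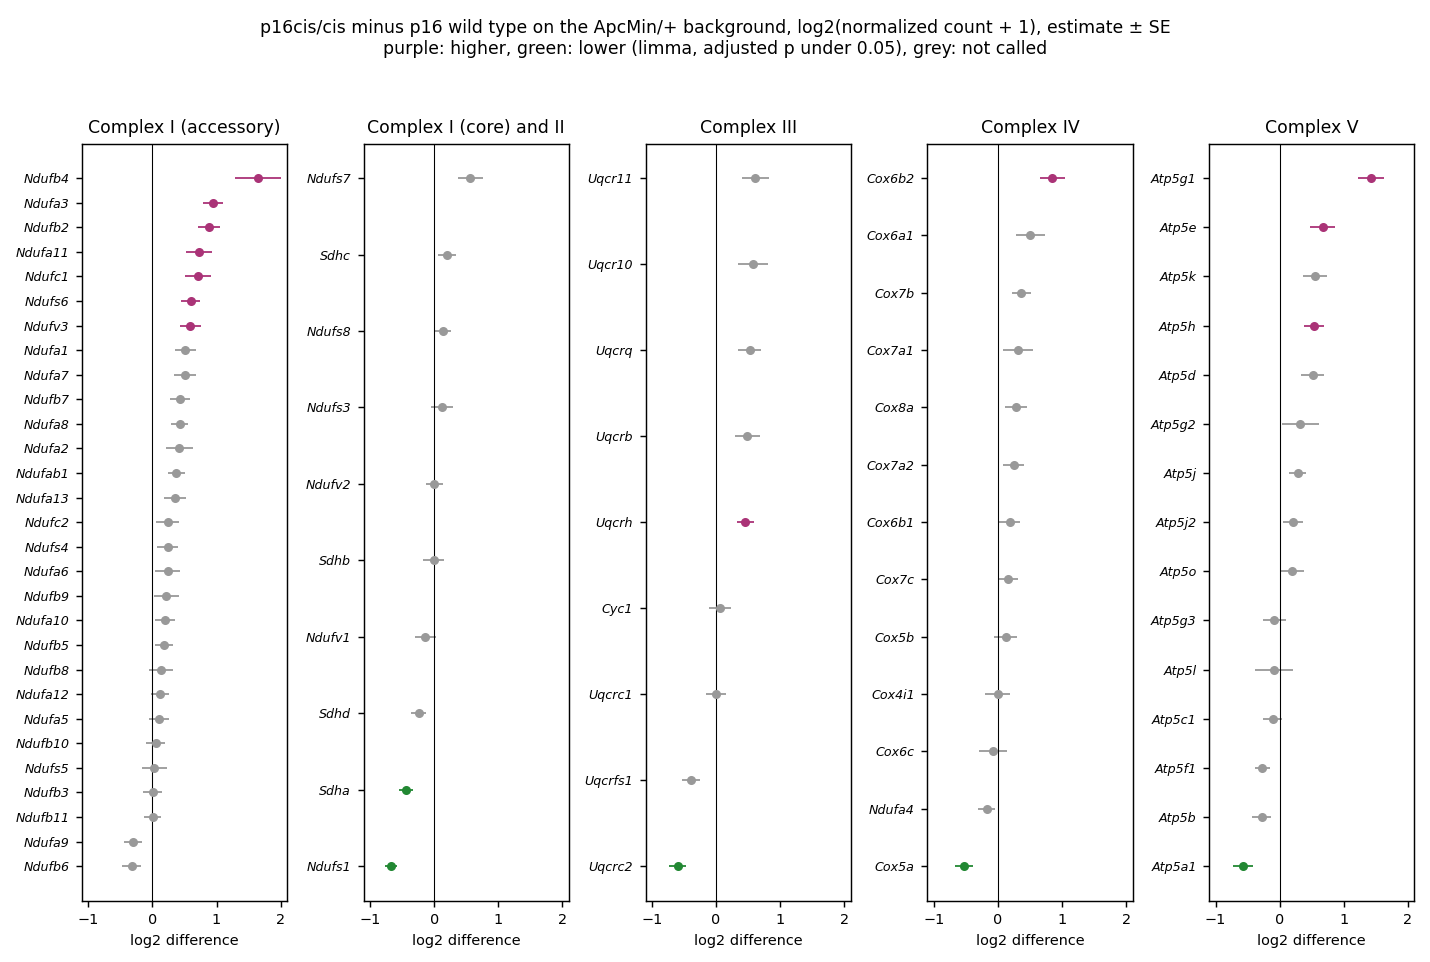
Log2 difference between the genotypes (x axis, ApcMin/+; p16cis/cis minus ApcMin/+, estimate ± standard error from limma) of the tested members reported here in complexes I to V, sorted within their panels. The called falls in complexes I, II, III, IV and V are Ndufs1, Sdha, Uqcrc2, Cox5a and Atp5a1, 1 in each complex, and the largest rises are Ndufb4 in complex I and Atp5g1 in complex V.

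The 5 falls were spread over the complexes, 1 in each, in Ndufs1, Sdha, Uqcrc2, Cox5a and Atp5a1. The rises were in 7 accessory subunits of complex I, in 1 subunit each of complexes III and IV, in 3 subunits of complex V and in Atp5sl. No subunit of complex II was called higher. Taking as core the 15 subunits of the conserved catalytic units (7 core subunits of complex I, all 4 of complex II, Cyc1, Uqcrfs1, Atp5a1 and Atp5b), 0 were higher and 3 lower in the limma test, and with an unadjusted p under 0.05 the counts were 1 and 6, where 16.2% and 17% of all genes reached that p in the higher and lower direction. Their median log2 difference was -0.14. Of the 62 other subunits tested 12 were higher and 2 lower, with a median log2 difference of 0.26. The median coding length was 846 bases in the core set and 372 in the others. After correction for coding length the medians were -0.090 and 0.096. After correction for GC content and transcript length they were -0.30 and -0.025. The difference between these sets, and the part of length in it, was not tested.

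Complex I takes electrons from NADH. Ndufs1, its largest nuclear-encoded subunit and the carrier of several iron-sulfur clusters, fell in every ApcMin/+; p16cis/cis mouse. Its gene (ENSMUSG00000025968.16) is at chromosome 1 (GRCm38, 63143596 to 63176833, minus strand). The normalized counts of Ndufs1 were 2940, 3320, 3224, 2911 and 2921 in ApcMin/+ replicates 1 to 5 and 2116, 1847, 1866 and 1836 in ApcMin/+; p16cis/cis replicates 1 to 4. The lowest ApcMin/+ mouse was thus well above the highest of the other genotype, and the log2 difference was -0.68 (standard error 0.090, adjusted p = 0.00195), the smallest adjusted p among the members. Genotypes that did not overlap in the lower direction were seen in 8.95% of all genes tested and in 4 of the 80 members, and in the higher direction in 7.24% of all genes and in 6 members.

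The other core subunits of complex I did not follow Ndufs1 past the threshold. Ndufv1, which binds NADH and FMN, had a log2 difference of -0.14 (standard error 0.17, adjusted p = 0.599). Ndufs7, which carries the last iron-sulfur cluster before the quinone and is named here after its values were seen, had a log2 difference of 0.56 in the opposite direction (standard error 0.20, adjusted p = 0.0699 by limma and 0.0496 by DESeq2). Over the 7 core subunits the median log2 difference was 0.0036, against 0.24 over the 29 accessory subunits, 7 of which rose and none of which was called lower. The median coding length was 789 bases in the core subunits and 411 in the accessory ones. Corrected for coding length, the median log2 differences were -0.035 and 0.17.

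The rises among the accessory subunits of complex I were led by Ndufb4, Ndufa3 and Ndufb2, all in the membrane arm. Ndufb4 (ENSMUSG00000022820.4, chromosome 16 from 37647170 to 37654453, minus strand) had normalized counts of 94.8, 105, 136, 378 and 102 in the 5 ApcMin/+ mice and 319, 501, 529 and 434 in the 4 ApcMin/+; p16cis/cis mice. ApcMin/+ replicate 4 overlapped with the other genotype, whereas the remaining ApcMin/+ mice were far below it. The mean was 2.74-fold higher, with a log2 difference of 1.65 (standard error 0.35, adjusted p = 0.0112). Ndufa3 (ENSMUSG00000035674.13, chromosome 7 from 3617373 to 3620327, plus strand) had 1855, 1866, 2191, 2798 and 1709 against 3151, 4257, 4504 and 4046, without overlap, and its log2 difference was 0.95 (standard error 0.15, adjusted p = 0.0040). Ndufb2 had 352, 344, 350, 553 and 376 against 566, 820, 835 and 672, also without overlap, although ApcMin/+ replicate 4 came within a few percent of the lowest ApcMin/+; p16cis/cis mouse. Its log2 difference was 0.88 (standard error 0.17, adjusted p = 0.00743), and 0.38 (adjusted p = 0.0633) once each mouse was corrected for GC content and transcript length. With correction for coding length in their place it was 0.64 and still called (adjusted p = 0.0102).

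Other accessory subunits of complex I, named here after their values were seen, rose with smaller differences. The log2 difference was 0.72 for Ndufa11 (adjusted p = 0.0321) and 0.72 for Ndufc1 (adjusted p = 0.0309). It was 0.60 for Ndufs6 (adjusted p = 0.0202), a zinc-binding subunit of the electron-input arm, and 0.59 for Ndufv3 (adjusted p = 0.0268), which sits beside the NADH site. In all 4 of these genes the range of the ApcMin/+ mice overlapped with that of the ApcMin/+; p16cis/cis mice through ApcMin/+ replicate 4 alone. With correction for GC content and transcript length the log2 difference was 0.23 for Ndufa11 (adjusted p = 0.300) and 0.16 for Ndufs6 (adjusted p = 0.235). Neither was called, while Ndufc1 stayed called at 0.73 (adjusted p = 0.0359). With correction for coding length Ndufc1 had 0.42 and was not called (adjusted p = 0.0813). There Ndufa11 had 0.55 (adjusted p = 0.0407) and Ndufs6 0.38 (adjusted p = 0.0246), both still called. Ndufa6, the most abundant member of complex I per kb, had a log2 difference of 0.24 (standard error 0.20, adjusted p = 0.440). Ndufab1, the least abundant per kb, had 0.37 (standard error 0.13, adjusted p = 0.0634 by limma and 0.0392 by DESeq2).

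Complex II oxidizes succinate and also serves the citric acid cycle. Sdha, its flavoprotein, was the member that fell. Sdha (ENSMUSG00000021577.14, chromosome 13 from 74322254 to 74350280, minus strand) had normalized counts of 8217, 9247, 9256, 9893 and 7963 in the 5 ApcMin/+ mice and 6801, 6176, 7193 and 6095 in the 4 ApcMin/+; p16cis/cis mice. The genotypes did not overlap, and the log2 difference was -0.44 (standard error 0.11, adjusted p = 0.0185). The other 3 subunits were not called. The iron-sulfur subunit Sdhb had a log2 difference of -0.0092 (standard error 0.17, adjusted p = 0.977), and the membrane anchors Sdhd and Sdhc had -0.24 (standard error 0.11, adjusted p = 0.146) and 0.19 (standard error 0.14, adjusted p = 0.376).

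Complex III moves electrons from ubiquinol to cytochrome c. Its median log2 difference, 0.46 over 9 genes, was the highest of the 5 complexes, but only Uqcrh rose past the threshold and Uqcrc2 fell. The median was 0.044 after correction for GC content and transcript length and 0.19 after correction for coding length. Uqcrc2 (ENSMUSG00000030884.12, chromosome 7 from 120635176 to 120659524, plus strand) encodes a large core protein on the matrix side. Its normalized counts were 6832, 7781, 8087, 8799 and 6587 in the 5 ApcMin/+ mice and 5916, 4549, 5566 and 4190 in the 4 ApcMin/+; p16cis/cis mice, again without overlap. The log2 difference was -0.60 (standard error 0.13, adjusted p = 0.0126). Uqcrc1, the partner of Uqcrc2 in the core, was not called. Its log2 difference was 0.0047 (standard error 0.15, adjusted p = 0.988).

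Among the small subunits of complex III, Uqcrh, the hinge protein, had 5624, 5172, 5746, 6782 and 4613 against 6382, 8260, 8048 and 7925, with overlap through the high ApcMin/+ replicate 4 and the low ApcMin/+; p16cis/cis replicate 1 (log2 difference 0.46, standard error 0.13, adjusted p = 0.0310). Correction for GC content and transcript length brought it to 0.11 (adjusted p = 0.405). Uqcr11 and Uqcrq had log2 differences of 0.61 (adjusted p = 0.0620) and 0.53 (adjusted p = 0.0651). The highly abundant Uqcr10 had 0.57 (adjusted p = 0.117). None of these passed in limma, also not after correction for GC content and transcript length. DESeq2 called Uqcr11 and Uqcrq (adjusted p = 0.0429 and 0.0289) but not Uqcr10 (0.110). Of the subunits that carry redox centers, cytochrome c1 (Cyc1) had a log2 difference of 0.059 (standard error 0.17, adjusted p = 0.839). The Rieske protein (Uqcrfs1) had -0.39 (standard error 0.14, adjusted p = 0.0778 by limma and 0.0401 by DESeq2). In limma Uqcrfs1 was called lower after correction for GC content and transcript length (adjusted p = 0.0382) and for coding length (0.0416).

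Complex IV reduces oxygen, and its redox centers are carried by mitochondrially encoded subunits, so all the nuclear-encoded members are structural or regulatory. Cox5a (ENSMUSG00000000088.7, chromosome 9 from 57521274 to 57532426, plus strand), a matrix-side subunit, was the member that fell. Its normalized counts were 5406, 5804, 6362, 6701 and 4043 in the 5 ApcMin/+ mice and 3802, 3481, 3970 and 4186 in the 4 ApcMin/+; p16cis/cis mice. ApcMin/+ replicate 5 lay within the range of the other genotype and the other 4 ApcMin/+ mice above it (log2 difference -0.53, standard error 0.14, adjusted p = 0.0250). Cox4i1, which binds ATP and pairs with Cox5a early in assembly, had a log2 difference of -0.0051 (standard error 0.19, adjusted p = 0.989), and Ndufa4 had -0.17 (standard error 0.13, adjusted p = 0.401). Cox7b had 0.37 (standard error 0.15, adjusted p = 0.102).

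Several subunits of complex IV exist as a widely expressed form and a form known from muscle, lung or testis. The widely expressed forms were abundant in the mucosa. Cox6a1 had a log2 difference of 0.51 (standard error 0.23, adjusted p = 0.145), Cox6b1 0.18 (adjusted p = 0.462), Cox7a2 0.24 (adjusted p = 0.339) and Cox8a 0.28 (adjusted p = 0.283). Their tissue partners were low or listed at 0: the highest normalized count in any mouse was 9.02 for Cox4i2, 10.97 for Cox6a2, 22.5 for Cox8b and 16.5 for Ndufa4l2. Cox8c was listed at 0 throughout, which allows up to 3 reads in a library, a share between 1.68e-05% and 2.22e-05% of its reads, for counting error only. Subunits of the mitochondrial genome that every cell uses, such as mt-Atp8 and mt-Nd4l, were also listed at 0 in all mice, so a 0 in these values does not show that a gene is silent.

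Cox6b2, known as the testis form of Cox6b, and Cox7a1, known as the heart and muscle form of Cox7a, were exceptions. Cox6b2 (ENSMUSG00000051811.14, chromosome 7 from 4751792 to 4753094, minus strand) rose from normalized counts of 49.1, 43.7, 59.5, 48.3 and 68.1 in ApcMin/+ mice to 101, 97.3, 94.7 and 92.4 in ApcMin/+; p16cis/cis mice. The genotypes did not overlap, and the spread among the 4 ApcMin/+; p16cis/cis mice was narrow (log2 difference 0.85, standard error 0.19, adjusted p = 0.0147). After correction for GC content and transcript length it was 0.41 and not called (adjusted p = 0.257). The level remained far below that of Cox6b1, with 131 per kb against 13767 per kb over the 9 mice. Cox7a1 had 530, 442, 655, 1051 and 391.6 against 614, 767, 759 and 735 (log2 difference 0.31, standard error 0.24, adjusted p = 0.390), and per kb its mean level, 1681, was lower than that of Cox7a2, 7025. The 5 striated muscle markers, 1 of which was at 0 in all mice, summed to 107 to 248 in ApcMin/+ mice against 182 to 332 in the other genotype. The 6 smooth muscle markers, all detected, summed to 41.9 to 357 against 37.6 to 113.

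**Figure D3:**
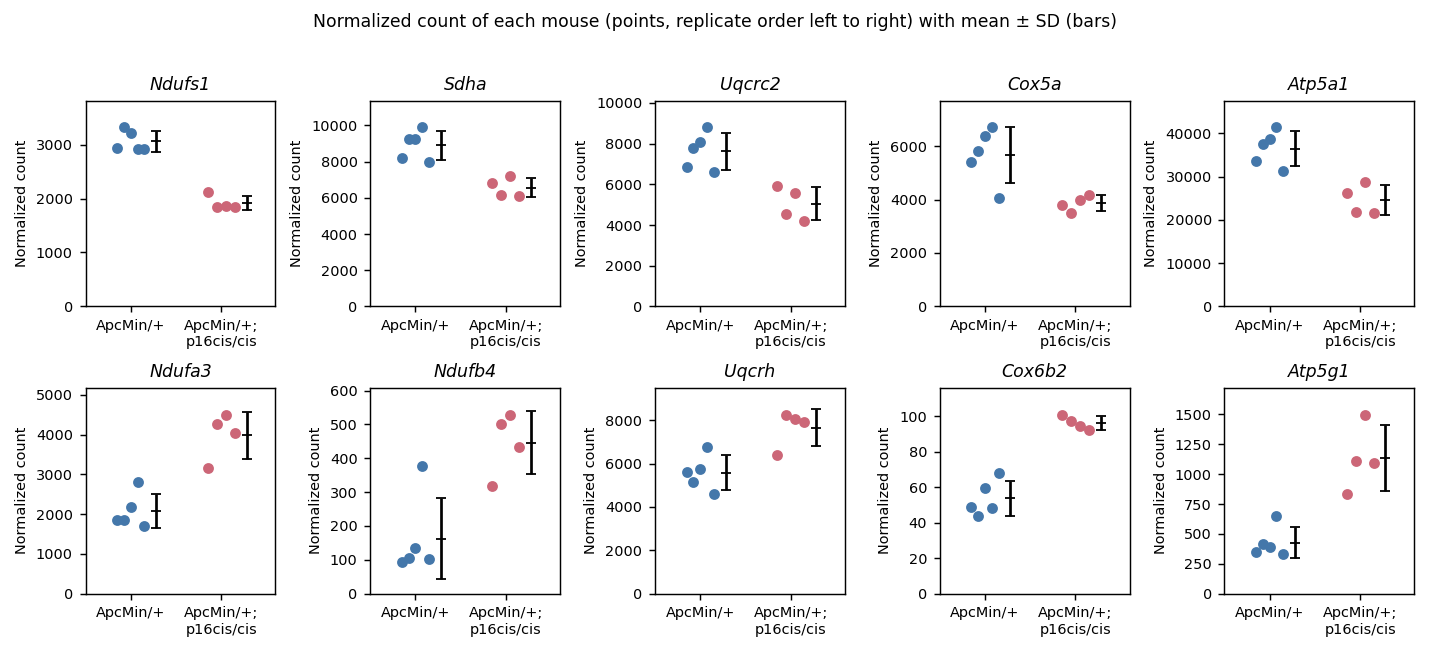
Normalized count (y axis, from 0) of each mouse for 10 members, with the mean and SD of each genotype beside the points. The upper row holds the 5 members that fell, with Cox5a the only one whose genotypes overlap, and the lower row 5 that rose, in which ApcMin/+ replicate 4 (the fourth point) stands highest among ApcMin/+ mice for Ndufa3, Ndufb4, Uqcrh and Atp5g1.

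Complex V makes ATP in its F1 head as protons turn the c-ring in the membrane. The alpha subunit Atp5a1 (ENSMUSG00000025428.15) fell, with normalized counts of 33594, 37425, 38762, 41363 and 31260 in the 5 ApcMin/+ mice and 26191, 21713, 28646 and 21548 in the 4 ApcMin/+; p16cis/cis mice. All ApcMin/+ mice were above all ApcMin/+; p16cis/cis mice, and the log2 difference was -0.58 (standard error 0.15, adjusted p = 0.0252). The catalytic beta subunit Atp5b, which alternates with alpha in the F1 head, had a log2 difference of -0.28 (standard error 0.15, adjusted p = 0.205). In the opposite direction, Atp5e, the small epsilon subunit of the F1 stalk, had 1957, 1834, 2120, 2968 and 2220 against 2221, 4175, 4104 and 3882. ApcMin/+; p16cis/cis replicate 1 lay among the ApcMin/+ mice, and the log2 difference was 0.67 (standard error 0.19, adjusted p = 0.0348). Atp5h, subunit d of the peripheral stalk, rose by a log2 difference of 0.54 (standard error 0.15, adjusted p = 0.0340). Corrected for GC content and transcript length, the values were 0.15 for Atp5e (adjusted p = 0.511) and 0.22 for Atp5h (adjusted p = 0.156), and both calls ended. Corrected for coding length, Atp5h stayed called at 0.40 (adjusted p = 0.0357), and Atp5e was not called at 0.30 (adjusted p = 0.160). Of the members that are not subunits, Atp5sl rose without overlap, with a mean of 1270 ± 180 (SD, n = 5) against 1822 ± 225.2 (SD, n = 4) and a log2 difference of 0.52 (standard error 0.13, adjusted p = 0.0173). Atp5s did not overlap either but was not called by limma (0.35, standard error 0.12, adjusted p = 0.0591 by limma and 0.0343 by DESeq2). Cox7a2l had 0.015 (standard error 0.17, adjusted p = 0.965).

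The c-ring itself is built from many copies of subunit c, which is encoded by 3 genes, Atp5g1, Atp5g2 and Atp5g3. The genes encode different leader peptides, in precursors of 136, 146 and 141 residues, but the same mature protein. The last 225 coding bases before the stop codon, 75 codons, are shown here for the 3 genes because they differ in letters and not in the protein. Capitals mark the bases that differ from Atp5g1. The sequences are from the GENCODE transcripts (GRCm38) of Atp5g1 on chromosome 11 from 96068852 to 96075670, Atp5g2 on chromosome 15 from 102662864 to 102672352 and Atp5g3 on chromosome 2 from 73908447 to 73911326, all on the minus strand.
Atp5g1: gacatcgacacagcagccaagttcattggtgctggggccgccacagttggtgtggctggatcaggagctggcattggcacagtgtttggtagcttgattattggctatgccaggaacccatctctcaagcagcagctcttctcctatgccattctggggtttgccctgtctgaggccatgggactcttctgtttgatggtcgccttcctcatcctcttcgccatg
Atp5g2: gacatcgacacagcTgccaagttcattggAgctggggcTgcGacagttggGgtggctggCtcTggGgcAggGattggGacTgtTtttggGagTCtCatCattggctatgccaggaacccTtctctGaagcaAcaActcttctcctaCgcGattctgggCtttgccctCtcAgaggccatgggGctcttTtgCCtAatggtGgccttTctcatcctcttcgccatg
Atp5g3: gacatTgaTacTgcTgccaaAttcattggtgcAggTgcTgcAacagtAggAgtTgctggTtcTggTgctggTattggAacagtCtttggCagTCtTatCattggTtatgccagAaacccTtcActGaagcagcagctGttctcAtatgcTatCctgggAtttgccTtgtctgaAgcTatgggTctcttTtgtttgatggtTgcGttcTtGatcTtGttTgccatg
Atp5g2 differed from Atp5g1 at 34 of the 225 bases and Atp5g3 at 45, and 0 of the 75 encoded residues differed.

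Of the 3 genes for this 1 protein, Atp5g1 was the one called on its own value. It rose, with normalized counts of 345, 415, 393, 648 and 330 in the 5 ApcMin/+ mice and 832, 1113, 1498 and 1090 in the 4 ApcMin/+; p16cis/cis mice. The genotypes did not overlap, the mean was 2.66-fold higher, and the log2 difference was 1.42 (standard error 0.21, adjusted p = 0.0026). Atp5g1 and Ndufb4 were the 2 members called higher with a fold change over 2, a combination that 1.83% of all genes tested reached. Atp5g3 was by far the most abundant of the 3 genes, with 13855 per kb over the 9 mice against 157 per kb for Atp5g1 and 79.0 per kb for Atp5g2. These values rest on transcripts of 714, 4715 and 441 bases. In normalized counts the means in ApcMin/+ and ApcMin/+; p16cis/cis mice were 10161 and 9557 for Atp5g3, 426 and 1134 for Atp5g1, and 31.5 and 39.0 for Atp5g2. Atp5g3 was not called (log2 difference -0.083, standard error 0.17, adjusted p = 0.776). Atp5g2 had 41.3, 22.8, 24.4, 41.9 and 27.2 against 46.7, 41.5, 28.6 and 39.2 (log2 difference 0.32, standard error 0.28, adjusted p = 0.468).

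The value of Atp5g2 is uncertain, because a processed pseudogene carries its sequence. RP23-457H7.8 (ENSMUSG00000066724.3, chromosome 7 from 23946646 to 23947290, minus strand, named here after its values were seen) matched the Atp5g2 transcript at 100% identity over 441 bases, with 0 differing bases in the coding end shown above. Its near-identical copies, nearly all through RP23-457H7.8, had normalized counts of 4.46, 2.85, 0, 175 and 7.95 in the 5 ApcMin/+ mice and 246, 215, 409 and 266 in the other genotype. The copies thus held 87.9% of the joint value in the 4 ApcMin/+; p16cis/cis mice and 54.7% in ApcMin/+ mice, but 11.7% in the latter without replicate 4, which stood alone in its group. Genes were quantified with RSEM, per the methods, but how reads shared by the gene and its copies were divided was not given. Over all members, 39 annotated pseudogenes matched 22 members at 95% identity or more over at least 150 bases, and for members other than Atp5g2 their mean share of the joint value was at most 8.69% in either genotype. With the values of the copies added to those of their member, an alternative chosen after seeing the data, 14 members were higher (8.15% of all genes) and 5 lower (8.75%). The added call was Atp5g2 itself, with joint values of 45.8, 25.7, 24.4, 217 and 35.2 against 293, 257, 437 and 305, without overlap, and a log2 difference of 2.73 (standard error 0.52, adjusted p = 0.00742). Whether Atp5g2 rose therefore depends on whether reads of its copies are counted with it.

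The members differed in size as well as in direction. In coding length, the median member had 430.5 bases, against 1380 bases for the other protein-coding genes tested. Over the 80 members the log2 difference and the coding length had a Spearman correlation of -0.50, against -0.11 over 12761 other protein-coding genes. With transcript length the correlation was -0.38 in the members and -0.22 in the other genes. With GC content it was 0.32 and 0.38, so that trend was not particular to the members. These values are a description across genes, which share the same 9 libraries and are not replicates. Of the 12 members with at least 900 coding bases 1 rose (Ndufv3) and 4 fell (Ndufs1, Sdha, Uqcrc2 and Atp5a1), with a median log2 difference of -0.29. Of the 68 shorter members 12 rose and 1 fell (Cox5a), with a median of 0.24. Other protein-coding genes moved in the same order but less far, with a median log2 difference of -0.049 in the 9367 genes of at least 900 coding bases and 0.085 in the 3394 shorter ones. Of the longer other genes 6.36% rose and 10.4% fell, and of the shorter 12.4% rose and 6.95% fell. In the class under 300 coding bases, 5 of 20 members rose (25%) beside 21.1% of 251 other genes. The median log2 difference in that class was 0.44 for the members and 0.26 for the other genes.

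**Figure D4:**
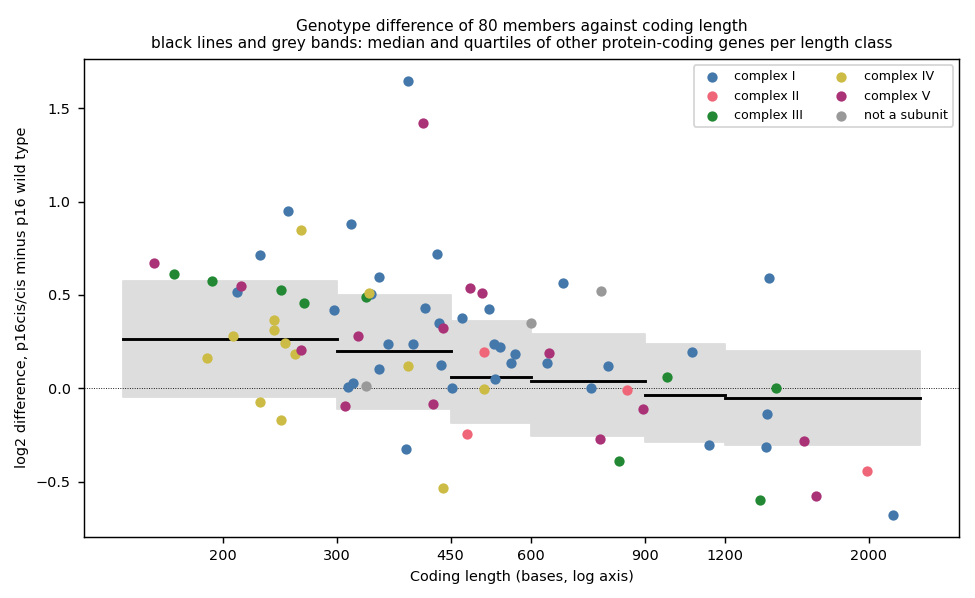
Log2 difference between the genotypes (y axis) of the 80 tested members against coding length in bases (log axis), colored by complex, with the median (black line) and quartiles (grey band) of the other protein-coding genes in 6 length classes. The median of the other genes goes from 0.26 in the shortest class to -0.053 in the longest, and most of the longest members lie below the grey band.

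The dependence on length was also seen in how each mouse departed from the mean of all mice. For members under 300 coding bases the median deviation was between 0.32 and 0.36 in ApcMin/+; p16cis/cis replicates 2, 3 and 4, while it was -0.16 in ApcMin/+; p16cis/cis replicate 1 and between -0.56 and 0.20 in the ApcMin/+ mice. For the 9 members of at least 1200 coding bases it was between -0.28 and -0.085 in the 4 ApcMin/+; p16cis/cis mice and between -0.10 and 0.42 in the 5 ApcMin/+ mice. ApcMin/+; p16cis/cis replicates 2, 3 and 4 thus lay above all ApcMin/+ mice in the shortest class and below 4 of them in the longest, where they overlapped with ApcMin/+ replicate 5. After each mouse was corrected for coding length in place of transcript length and GC content, an alternative chosen after seeing the data, 9 members were higher and 9 lower, beside 8.91% and 10.1% of all genes, and the median log2 difference was 0.060. After correction for GC content and transcript length, 8 were higher and 10 lower, beside 6.12% and 5.92% of all genes.

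**Figure D5:**
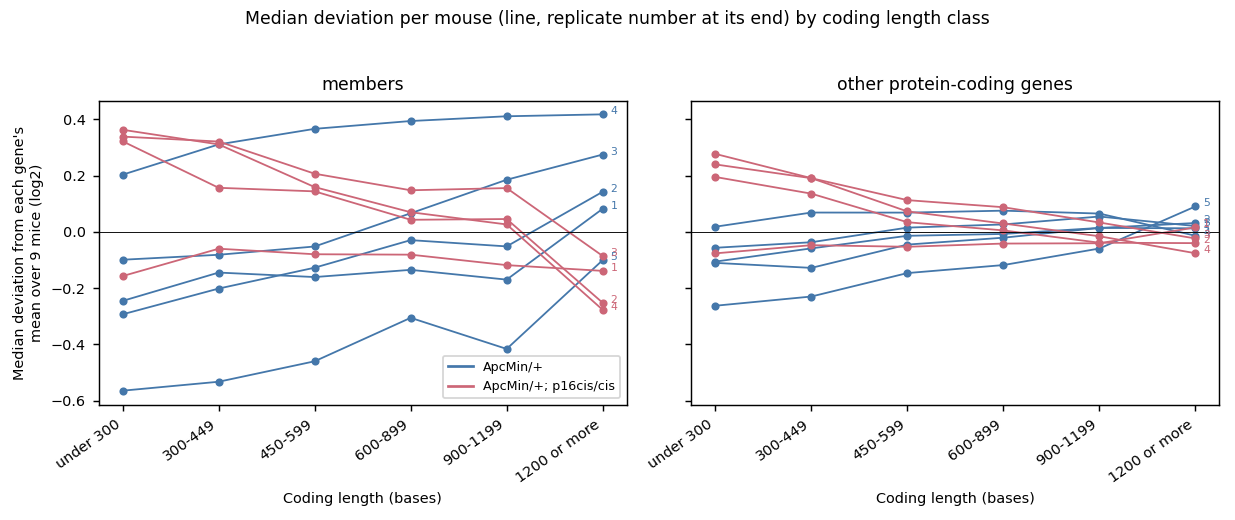
Median deviation of each mouse from the gene means over 9 mice (y axis, log2) by coding length class (x axis), for the members and for other protein-coding genes, with 1 line per mouse and its replicate number at the end. In the members panel, 3 of the 4 ApcMin/+; p16cis/cis mice start above 0.3 in the shortest class and all 4 end below 0 in the longest.

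Single mice stood in a steady order over the members. Within ApcMin/+ mice, replicate 4 was the highest in 68 of the 80 members tested and replicate 5 the lowest in 67. Within ApcMin/+; p16cis/cis mice, replicate 1, the only male of its genotype, was the lowest in 61. The median deviation over all members was -0.16, -0.17, 0.017, 0.31 and -0.44 in the 5 ApcMin/+ mice and -0.11, 0.13, 0.26 and 0.21 in the 4 ApcMin/+; p16cis/cis mice, so the genotypes overlapped in the median member. In females alone, 2 against 3, the median log2 difference was 0.50, with 28 members higher and 1 lower, beside 3.6% and 2.63% of all genes in that fit. Of the 5 falls only Ndufs1 was called there by limma. The log2 differences of the other falls were -0.32 for Sdha (adjusted p = 0.209), -0.50 for Uqcrc2 (0.0935), -0.27 for Cox5a (0.336) and -0.45 for Atp5a1 (0.216). Cox6b2 and Atp5sl were not called there either. With sex as a covariate over all mice, Atp5a1, Cox5a, Atp5e, Atp5h, Ndufc1 and Uqcrh were no longer called (adjusted p between 0.0612 and 0.0880). Between males, 3 against 1, the median difference was -0.18, with no test. The interaction of sex and genotype was not called in any gene (limma, adjusted p under 0.05), although 979 of the 14410 genes and 40 of the 80 members had an unadjusted p under 0.05, and the smallest adjusted p among the members was 0.722. The male estimate rests on the single mouse ApcMin/+; p16cis/cis replicate 1, so sex and that animal cannot be told apart.

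The calls differed in how far they depended on single mice. Ndufs1, Uqcrc2, Atp5g1, Ndufa3, Ndufb2, Ndufb4 and Cox6b2 stayed called whichever mouse was left out. Of these, Ndufb2 and Cox6b2 were no longer called after correction for GC content and transcript length. After correction for coding length Ndufb2 stayed called and Cox6b2 did not. Uqcrh, Ndufa11, Ndufc1, Ndufv3, Atp5h and Atp5e were called only with all 9 mice or without ApcMin/+ replicate 4 or ApcMin/+; p16cis/cis replicate 1, and their adjusted p rose to at most 0.105 without any other mouse. Without ApcMin/+; p16cis/cis replicate 2, 11 of the 18 calls were lost, with adjusted p between 0.0568 and 0.105, and these included Sdha, Cox5a, Atp5a1, Ndufs6 and Atp5sl. Without ApcMin/+; p16cis/cis replicate 4, 10 were lost, among them Sdha, Atp5a1, Ndufs6 and Atp5sl, with adjusted p between 0.0584 and 0.1003. Without ApcMin/+ replicate 2, 9 were lost, among them Cox5a, Atp5a1 and Ndufs6, with adjusted p between 0.0517 and 0.0824, and without ApcMin/+ replicate 3, 9 were lost, among them Sdha, Cox5a and Atp5a1, with adjusted p between 0.0518 and 0.0754. In each of these fits the direction was the same as with all mice. In a fit that took the mitochondrial share of each library as a covariate, which moves with genotype, 0 members and 0 of all genes were called by limma, and 3 members were higher and 1 lower at an unadjusted p under 0.05, a share near the 2.45% and 3.09% of all genes.

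The promoters were searched for short consensus strings of factors known to drive respiratory genes. RefSeq windows (GRCm38.p6) from 250 bases before to 50 bases after the start site were used for the 59 members whose start lay within 100 bases of the GENCODE start, beside 8073 other tested genes. The NRF1 string GCGCNTGCG, on either strand, was found in 33.9% of the member windows and 14.4% of the others. The ERR string TNAAGGTCA was found in 5.08% and 0.756%, the YY1 string AANATGGCG in 10.2% and 5.55%, the ETS string CCGGAAGTG in 1.69% and 4.87%, and the E-box CACGTG in 8.47% and 10.2%. Of 12 higher members with a window 4 held the NRF1 string, and of 2 lower members 1 did. The stretches before the start site of Sdha, which fell, and of Ndufb4 and Ndufa11, which rose, are shown because members that moved in opposite directions share the string. Capitals mark NRF1 matches, read on the gene's strand from 5′ to 3′, and in Ndufa11 matches on both strands overlap. The stretches are chr13:74350281-74350490 (minus strand) for Sdha, chr16:37654454-37654618 (minus strand) for Ndufb4 and chr17:56717512-56717761 (plus strand) for Ndufa11.
Sdha: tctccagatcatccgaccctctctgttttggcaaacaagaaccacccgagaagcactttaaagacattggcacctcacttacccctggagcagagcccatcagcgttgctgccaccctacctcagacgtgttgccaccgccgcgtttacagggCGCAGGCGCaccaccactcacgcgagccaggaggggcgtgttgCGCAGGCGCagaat
Ndufb4: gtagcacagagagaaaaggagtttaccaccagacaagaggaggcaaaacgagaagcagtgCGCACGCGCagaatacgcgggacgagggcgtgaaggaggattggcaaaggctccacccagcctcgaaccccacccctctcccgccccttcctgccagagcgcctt
Ndufa11: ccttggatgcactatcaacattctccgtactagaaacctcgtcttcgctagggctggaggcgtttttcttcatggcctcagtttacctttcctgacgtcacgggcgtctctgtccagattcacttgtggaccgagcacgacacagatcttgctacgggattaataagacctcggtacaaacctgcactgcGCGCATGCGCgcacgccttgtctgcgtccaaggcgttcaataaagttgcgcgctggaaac
A match is a description of these letters and not of binding, and no further match of Sdha or Ndufb4 that lies closer to or beyond the start site is shown.

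The genes that build, supply and regulate the chain were read from lists chosen with earlier results known. Of 50 assembly factors tested 8 were higher and 5 lower, beside 8.14% and 8.75% of all genes tested, with a median log2 difference of 0.047. The rises were in Ndufaf8, Dmac1 and Dmac2 (the current name of Atp5sl), which act on complex I, Uqcc2, which acts on complex III, and Cox17, Cox19, Pet100 and Cmc2, which act on complex IV. Cox17, a copper chaperone, had the largest log2 difference of these, 1.05 (standard error 0.21, adjusted p = 0.00838), and its genotypes did not overlap. The falls were in Acad9, Cox11, Sco1, Coa5 and Taco1. Cox11, which helps to insert copper into complex IV, had a mean of 101 ± 14.8 (SD, n = 5) against 48.7 ± 10.96 (SD, n = 4) and a log2 difference of -1.06 (standard error 0.22, adjusted p = 0.00923).

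Of 14 genes for mobile carriers and coenzyme Q synthesis, Cycs, which encodes cytochrome c, was higher (log2 difference 0.88, standard error 0.24, adjusted p = 0.0300) and Pdss1, which makes the coenzyme Q side chain, was lower (-0.52, standard error 0.11, adjusted p = 0.00911). Of 23 regulators of mitochondrial biogenesis 1 was higher and 3 lower, with a median of -0.025. Beside both lists, 8.14% of all genes tested were higher and 8.75% lower. The coactivator Ppargc1a had normalized counts of 1110, 1025, 699, 969 and 837 against 715, 646, 642 and 465. A single ApcMin/+ mouse, replicate 3, lay within the other genotype's range, and the log2 difference was -0.59 (standard error 0.16, adjusted p = 0.0272). Tfam, which packages mitochondrial DNA and acts in its transcription, fell without overlap (-0.52, standard error 0.11, adjusted p = 0.00957). So did Lrpprc, which stabilizes mitochondrial mRNAs (-0.56, standard error 0.12, adjusted p = 0.0124). Perm1, a regulator known from muscle, was higher from a low level, with means of 19.1 ± 7.33 (SD, n = 5) and 46.6 ± 15.8 (SD, n = 4). The transcription factors Nrf1, Esrra and Gabpa were not called, with log2 differences of -0.042, -0.22 and -0.43 (adjusted p = 0.841, 0.244 and 0.0527). Reads of Gabpa and Atp5j may be mixed, because their exons overlap by 182 bases on opposite strands and the use of strand in the counting was not given.

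Of 10 genes for transport and uncoupling, the adenine nucleotide carrier Slc25a5 fell, with a mean of 11114 ± 1993 (SD, n = 5) against 5675 ± 530.4 (SD, n = 4) and a log2 difference of -0.95 (standard error 0.15, adjusted p = 0.00339). The outer membrane channel Vdac3 fell as well (-0.49, standard error 0.12, adjusted p = 0.0189), and Atpif1, the inhibitor of ATP synthase, rose (0.63, standard error 0.13, adjusted p = 0.00864). Of the 10 genes 1 was thus higher and 2 lower, beside 8.14% and 8.75% of all genes tested. Of the 13 subunits encoded by mitochondrial DNA 7 entered the test. Of these 5 were higher, beside 8.14% of all genes tested, with a median log2 difference of 1.29 over the 7. The other 6, mt-Co2, mt-Co3, mt-Atp6, mt-Atp8, mt-Nd4l and mt-Nd3, had means of at most 5.81 normalized counts in either genotype. The nuclear-encoded members of the complexes that hold mitochondrially encoded subunits had medians between 0.18 for complex IV and 0.46 for complex III. After correction for GC content and transcript length these medians lay between -0.15 for complex IV and 0.044 for complex III.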

How the data were processed

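RNA was extracted from colonic crypts, per the methods, and libraries were sequenced on the BGISEQ-500 platform, aligned with BOWTIE2 and quantified with RSEM. The versions, the genome build and the use of strand are not given in the sources used here. The authors deposited a table of DESeq2 normalized counts, a signal in which the reads of a gene are scaled by the library's size factor. Dividing each value by the smallest positive value of its column gave whole reads for 100% of the positive values, to within 0.01 reads. Shares and floors of 3 reads cover counting error only.

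Genotypes were compared with limma 3.58.1 (R 4.3.3), using trended variances and a model of genotype alone, on log2(normalized count + 1) over 14410 genes, with Benjamini-Hochberg adjustment over all of them. It was tested on simulated data. Alternatives were the edgeR 4.0.16 and DESeq2 1.42.0 count tests of the recovered reads, and other scalings, filters, covariates, thresholds and omissions of mice. Library shares were compared by exact permutation tests. Identifiers were matched to GENCODE M21 (GRCm38), where 52480 of 54146 had the same version and 54079 any version, for coordinates, GC content and lengths, which are those of the principal transcript. Copies were found with BLAST 2.17.0.

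The members, the gene lists, the motifs and the tests were chosen with earlier results of these data known. The genes named are, in each complex, the 4 with the smallest p, the catalytic subunits, the tissue isoforms with their partners, the members that are not subunits, and the highest and lowest per kb, and in the lists a set of regulators with every gene called. Genes outside this rule are marked where they appear, and 1 member that it selects is not reported here. Replicate numbers are shared between the genotypes in the labels, but same-numbered mice did not deviate together (correlations of -0.18, 0.07, 0.05 and 0.14), and the numbers were not used as pairs. Any pair of libraries differed in 20964 genes or more.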

Additional observations from a re-analysis of the deposited data

Results flagged for a closer look

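Of 82 groups of 4 or 5 mice checked among the members that the naming rule selects, 8 held a mouse far from the others of its genotype, where chance gives about 1 in 20. Of these, 5 concerned the single male among ApcMin/+; p16cis/cis mice, replicate 1. The normalized count was 2221 for Atp5e (3882 to 4175 in the other mice), 1715 for Atp5h (2276 to 2376), 1733 for Ndufs6 (2406 to 2474) and 5030 for Uqcrq (7740 to 8289), each on the side of the ApcMin/+ mice. Ndufs1 was 2116 in the same mouse (1836 to 1866 in the others), again nearer to ApcMin/+ mice. In ApcMin/+ replicate 4, 3 members that rose in ApcMin/+; p16cis/cis mice stood above the other ApcMin/+ mice, with 648 for Atp5g1 (330 to 415), 553 for Ndufb2 (344 to 376) and 378 for Ndufb4 (94.8 to 136). Without that mouse all 3 remained higher in the limma test.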

How the results depend on the processing

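The counts of 13 higher and 5 lower members stayed within 1.5 times under edgeR with TMM or RLE, TMM scaling, a pseudocount of 0.1, both other filters and the addition of near-identical copies. The share of all genes in the same fit is given in brackets. DESeq2 gave 24 higher (2.82% of the 54146 genes listed, with no filter). Scaling to reads that are not of the mitochondrial genome gave 22 higher (8.29%), and sex as a covariate gave 3 lower (5.28%). Females alone gave 28 higher (3.6%) and 1 lower (2.63%) with a median of 0.50. The replicate number as a block gave 8 lower (7.56%). Same-numbered mice are different animals, and 2 of the 4 numbers correlated best with their own. Correction for GC content and length gave 8 higher (6.12%) and 10 lower (5.92%) and turned the median to -0.074. The same with the replicate block gave 5 higher (4.49%) and turned the median to -0.13. Correction for coding length gave 9 lower (10.1%). The mitochondrial share as a covariate gave 0 higher and 0 lower, as it did over all genes. A fold over 2 gave 2 higher (1.83%) and 0 lower. Bonferroni adjustment in limma gave 0 and 0, with 28 higher and 10 lower at an unadjusted p under 0.05 (16.2% and 17% of all genes). Leaving out single mice gave 5 to 30 higher (3.71% to 11.7% of all genes) and 2 to 8 lower (4.5% to 12.5%). The cause of these shifts was not tested. Each of the 18 calls kept its direction in all 25 alternatives that refitted the genes, thresholds aside, and Ndufs1, Ndufa3, Ndufb4 and Atp5g1 stayed called in 24. Levels near 0, such as those of Cox4i2 and Cox6a2, were too low for a comparison at this depth.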
